A study of Mus musculus with 5 samples.

Results

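The genes described here are 35 genes of glycolysis and of the response to low oxygen, taken by name from a table of 15180 protein-coding genes measured in fibroblasts of mouse pancreatic tumours. All 35 were in the table, 23 of them enzymes and transporters of the glycolytic route and 12 of them oxygen sensors, other targets of the hypoxia-inducible factors (HIFs) or HIF alpha subunits themselves. A second entry also named Aldoa held at most 2.90 normalised counts in any library and was set aside, so that each gene had 1 entry with a mean of at least 10.

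The tumours were KPC tumours, a model of pancreatic cancer, and the mice received vehicle (3 libraries) or LDE225 (sonidegib, 2 libraries) by gavage for 14 days after tumours had formed. LDE225 inhibits Smoothened, which relays Hedgehog signalling from the cell membrane. Live cells carrying podoplanin (PDPN) and lacking CD45, EpCAM and E-cadherin were sorted, so that the marker panel and not a Cre line defined the fibroblasts, and all 5 libraries share it. Not given in the sources used here are the alleles, strain, sex and age of the mice and whether every library stands for a different mouse, so the tests measure the spread between these libraries, which may be technical. Values are counts divided by a DESeq2 size factor per library, called normalised counts below. Levels of single genes are in this unit, in the order of replicates 1, 2 and 3 with vehicle and 1 and 2 with LDE225, and the error after a log2 fold change (LDE225 over vehicle) is its standard error.

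Glycolysis splits glucose into pyruvate and yields ATP without oxygen; lactate dehydrogenase and lactate exporters then dispose of the pyruvate. HIFs are dimers of an oxygen-regulated alpha subunit with a stable partner. When oxygen is present, prolyl hydroxylases of the Egln family mark the alpha subunit for destruction through VHL, and when it is scarce the dimer binds the core motif ACGTG or GCGTG and raises most glycolytic genes, lactate export and its own hydroxylase Egln3. Fibroblasts of pancreatic tumours live in poorly perfused matrix and are known to vary in glycolytic activity.

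Promoters of 31 of the 35 genes were found in RefSeq (GRCm38.p6) as windows of 300 bases, from 250 before to 50 after the transcription start. Those of Bhlhe40, Epas1, Ndrg1 and Slc2a3 were not used here. The 6 windows printed below belong to Egln3, Pgk1 and Slc16a3, which had the smallest p-values among genes lower with LDE225, to Ldha, the classical HIF target of the pathway, and to Pfkp and Hif1a, which had higher values with LDE225. Capitals mark ACGTG and GCGTG, the 2 forms of the HIF core motif, on either strand (read on the other strand as CACGT and CACGC).
Egln3, chr12:54203825-54204124, minus strand: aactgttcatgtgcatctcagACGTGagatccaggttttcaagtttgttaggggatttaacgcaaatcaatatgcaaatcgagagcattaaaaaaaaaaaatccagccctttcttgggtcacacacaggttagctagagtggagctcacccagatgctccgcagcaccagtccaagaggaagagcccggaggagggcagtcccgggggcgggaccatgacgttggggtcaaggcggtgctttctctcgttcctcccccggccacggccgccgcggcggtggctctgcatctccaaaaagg
Pgk1, chrX:106186850-106187149, plus strand: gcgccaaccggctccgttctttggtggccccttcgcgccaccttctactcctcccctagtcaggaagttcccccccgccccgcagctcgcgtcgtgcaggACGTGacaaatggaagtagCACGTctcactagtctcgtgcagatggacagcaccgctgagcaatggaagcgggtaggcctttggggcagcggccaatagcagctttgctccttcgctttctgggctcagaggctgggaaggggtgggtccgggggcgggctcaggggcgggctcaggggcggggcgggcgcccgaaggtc
Slc16a3, chr11:120948817-120949116, plus strand: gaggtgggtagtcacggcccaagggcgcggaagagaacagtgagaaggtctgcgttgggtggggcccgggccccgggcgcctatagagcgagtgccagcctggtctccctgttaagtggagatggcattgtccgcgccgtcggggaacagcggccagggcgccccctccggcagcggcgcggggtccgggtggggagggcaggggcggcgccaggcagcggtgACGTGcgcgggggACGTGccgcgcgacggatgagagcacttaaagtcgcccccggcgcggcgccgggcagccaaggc
Ldha, chr7:46845554-46845853, plus strand: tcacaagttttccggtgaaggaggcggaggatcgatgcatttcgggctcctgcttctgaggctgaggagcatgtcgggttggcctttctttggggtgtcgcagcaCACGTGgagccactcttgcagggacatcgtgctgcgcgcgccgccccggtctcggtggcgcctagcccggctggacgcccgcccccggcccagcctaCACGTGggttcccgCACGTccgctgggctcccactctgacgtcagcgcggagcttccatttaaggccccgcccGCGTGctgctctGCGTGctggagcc
Pfkp, chr13:6648722-6649021, minus strand: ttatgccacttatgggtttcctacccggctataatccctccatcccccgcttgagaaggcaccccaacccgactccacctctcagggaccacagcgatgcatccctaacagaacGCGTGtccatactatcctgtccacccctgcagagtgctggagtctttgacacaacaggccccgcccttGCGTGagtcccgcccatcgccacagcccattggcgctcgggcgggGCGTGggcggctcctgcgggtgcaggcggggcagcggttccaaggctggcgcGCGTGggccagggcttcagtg
Hif1a, chr12:73907617-73907916, plus strand: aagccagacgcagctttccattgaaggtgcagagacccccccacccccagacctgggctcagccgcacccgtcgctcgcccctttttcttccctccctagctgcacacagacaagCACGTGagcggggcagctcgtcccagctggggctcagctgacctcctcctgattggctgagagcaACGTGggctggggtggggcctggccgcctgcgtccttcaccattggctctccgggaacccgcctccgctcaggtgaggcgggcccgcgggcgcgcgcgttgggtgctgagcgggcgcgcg

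ACGTG was present in at least 1 window of 22 of the 31 genes (71.0%), against 27.8% of the 11828 genes of the table with a promoter. Counted by window, it was in 54.2% of 48 windows, against 3607 of the 15045 windows of genes in the table and 19.6% of all 32851 promoters of this length. GCGTG differed less, in 24 of the 48 windows of the 31 genes, 47.6% of windows of genes in the table and 32.4% of all promoters. The palindrome CACGTG, the E-box that also contains ACGTG on both strands, was in 6 windows, 12.5% of them, against 9.33% of windows of genes in the table and 7.15% of all promoters. ACGTG was in 12 of 17 genes that were lower in both LDE225 libraries and in 10 of the other 14. Pfkp held 4 copies of GCGTG and none of ACGTG, whereas the printed Ldha window held 5 matches to ACGTG over both strands and 2 to GCGTG. Each of its 2 CACGTG palindromes gives a match on either strand and so counts more than once. The other Ldha window held 0 of ACGTG and 2 of GCGTG. The genes were listed for glycolysis and the response to low oxygen, so a larger share with the HIF motif may follow from that choice. It is not a result of the treatment. Shares by gene also grow with the number of windows per gene. A match describes letters in the window and not a bound site.

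The recovered depth was 7578822 to 14083280 reads per library over the genes of the table, and both LDE225 libraries were deeper than every vehicle library. Gli1, a Hedgehog target and the check of the drug, had 315, 463 and 264 with vehicle and 22.5 and 14.4 with LDE225 (log2 fold change -4.16 ± 0.34, limma adjusted p = 0.0355). Fibroblast markers were abundant throughout, with summed normalised counts of 10 markers between 628204 and 1221080 with vehicle and between 1126530 and 1214880 with LDE225. Vehicle 1 had the lowest of these sums, and 9 of the 10 markers had positive log2 fold changes (median 0.41). In both LDE225 libraries 3 were higher and 1 lower than in every vehicle library, where 16.6% and 15.2% of all genes tested were. DESeq2 called 1 higher and 0 lower, against 2.3% and 1.77% of all genes. Summed markers of macrophages, endothelium, pericytes and red cells overlapped between the groups. Epithelial and proliferation markers were lower with LDE225 and are given beside the enzymes below.

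Most glycolytic enzymes were lower with LDE225, from phosphoglucose isomerase to lactate dehydrogenase, while the hexokinases and several minor isoforms had overlapping values. Of the 23 enzymes and transporters, 19 had negative and 4 positive log2 fold changes. Their median was -0.64, against 0.003 over all 13183 genes tested. The LDE225 libraries both had less than any vehicle library for 15 of the 23, and both had more for 1 (Pfkp). Over all genes tested, 15.2% were separated in the lower and 16.6% in the higher direction. In bulk RNA, fewer cells of a type that uses a gene and less of its RNA per cell cannot be told apart.

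In limma, which was fitted on log2(normalised count + 1) over all genes with Benjamini-Hochberg adjustment, 0 of the 35 genes passed an adjusted p of 0.05 in either direction (smallest 0.116, for Epas1). Over all genes 0.00759% passed lower and 0.0228% higher, so that very few genes of any kind passed. At an unadjusted p under 0.05, 15 enzymes and transporters were lower and 1 higher, where 5.71% and 6.92% of all genes were. The quasi-likelihood test of edgeR, run on whole reads recovered from the values, called 0 of the 35, against 0% of all genes lower and 0.0152% higher, and put 17 of the 35 at an unadjusted p under 0.05 and lower, where 5.68% of all genes were. DESeq2 on the same reads called 9 enzymes and transporters lower (Pfkl, Aldoc, Tpi1, Gapdh, Pgk1, Pgam1, Eno1, Pkm and Slc16a3) and Egln3 lower and Epas1 higher among the other genes, where it called 1.77% of all genes lower and 2.3% higher. The calls of these genes thus depended on the test, although their values with the 2 treatments did not overlap.

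**Figure D1:**
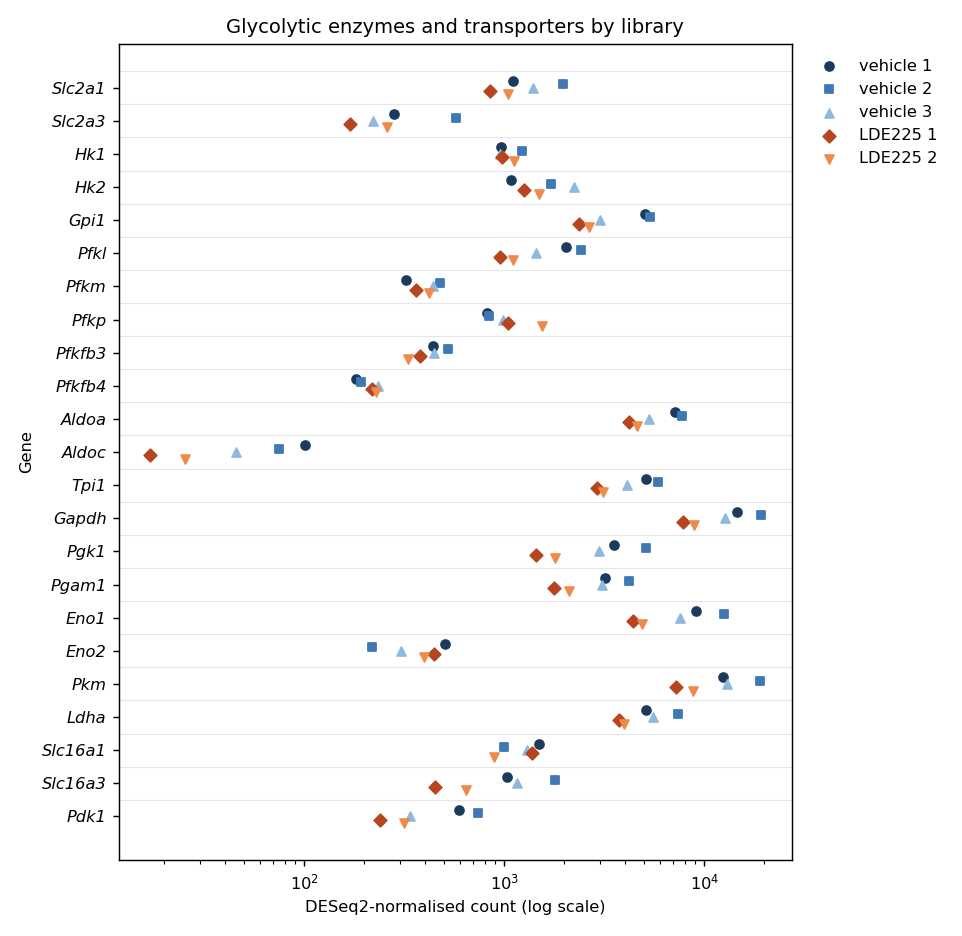
DESeq2-normalised counts (log scale) of the 23 glycolytic enzymes and transporters in each of the 5 libraries, blue for vehicle and orange for LDE225. Orange points lie left of all blue points for 15 genes, among them Gapdh, Pgk1, Eno1 and Pkm, and right of them for Pfkp.

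Glucose entry was described by 2 transporters. Slc2a1 encodes GLUT1, the main glucose carrier of most cells, and had 1106, 1979 and 1394 in vehicle 1, 2 and 3 and 850.0 and 1047 in LDE225 1 and 2. Its values did not overlap, but vehicle 1 and LDE225 2 were close (log2 fold change -0.62 ± 0.26, limma adjusted p = 0.391). Slc2a3, which encodes the high-affinity carrier GLUT3, had 280.4, 576 and 220.1 with vehicle and 169.5 and 260.3 with LDE225, so that LDE225 2 exceeded vehicle 3 (log2 fold change -0.64 ± 0.42, limma adjusted p = 0.595).

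Hexokinases trap glucose in the cell as glucose 6-phosphate, and neither gene separated the groups. Hk2, the HIF-responsive form, had 1078, 1723 and 2238 in vehicle 1, 2 and 3 and 1261 and 1497 in LDE225 1 and 2, and both LDE225 values lay within the range of the vehicle libraries (log2 fold change -0.23 ± 0.30, limma adjusted p = 0.815). Hk1 had 962, 1222 and 953 with vehicle and 972 and 1124 with LDE225. Its log2 fold change was 0.0096, with a 95% interval of -0.40 to 0.42, which leaves room for a moderate change either way, and that of Hk2 had an interval of -0.95 to 0.50. The signs of both turned in some alternatives, Hk1 among them with each of the 3 other scalings.

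The next steps had lower values with LDE225. Gpi1, phosphoglucose isomerase, had 5054, 5363 and 3022 with vehicle and 2366 and 2649.7 with LDE225 (log2 fold change -0.79 ± 0.27, limma adjusted p = 0.304). Aldoa, the main aldolase, which cleaves fructose 1,6-bisphosphate, had 7129, 7721 and 5301 with vehicle and 4208 and 4622 with LDE225 (log2 fold change -0.59 ± 0.21, limma adjusted p = 0.324). In both genes vehicle 3 was the vehicle library nearest to the LDE225 libraries. Tpi1, triosephosphate isomerase, had 5132, 5883 and 4129.7 with vehicle and 2902 and 3117 with LDE225, 1.68-fold lower by the means with LDE225 (log2 fold change -0.73 ± 0.19, limma adjusted p = 0.213). Aldoc, a minor aldolase best known from brain, was 3.48-fold lower, at 101, 74.4 and 45.4 with vehicle and 16.9 and 25.4 with LDE225 (log2 fold change -1.71 ± 0.46, limma adjusted p = 0.222). Its standard error was the largest of the enzymes, and it supplied between 0.399% and 1.39% of the aldolase counts of a library.

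Phosphofructokinase, the committed step of glycolysis, is encoded by 3 genes whose products mix in tetramers. Pfkl, the liver-type subunit, had 2042, 2408 and 1449 in vehicle 1, 2 and 3 and 953 and 1111 in LDE225 1 and 2 (log2 fold change -0.90 ± 0.23, limma adjusted p = 0.21). Pfkp, the platelet-type subunit, had higher values with LDE225, with 818, 838 and 989 in vehicle 1, 2 and 3 and 1041 and 1548 in LDE225 1 and 2 (log2 fold change 0.53 ± 0.21, limma adjusted p = 0.36). In this gene LDE225 1 stood only slightly above vehicle 3. Its log2 fold change was 0.24 without LDE225 2 and 0.82 without LDE225 1, so its size rested largely on LDE225 2. Pfkm, the muscle-type subunit, overlapped, at 321, 479.9 and 440.2 with vehicle and 362 and 423 with LDE225 (log2 fold change -0.061, 95% interval -0.58 to 0.46). Summed over the 3 genes, the step had 3262 ± 430.0 with vehicle and 2718 ± 513 with LDE225, and the libraries overlapped. The makeup of the step differed more than its sum: Pfkl made up 64.2%, 64.6% and 50.3% in vehicle 1, 2 and 3 and 40.5% and 36.0% in LDE225 1 and 2, and Pfkp 25.7%, 22.5% and 34.4% in vehicle 1, 2 and 3 and 44.2% and 50.2% in LDE225 1 and 2. These are shares of counts, which also grow with transcript length. Per kilobase of exon, Pfkl had 295 with vehicle and 155 with LDE225, Pfkm 124 and 117, and Pfkp 65.8 and 96.6. The lengths used merge the exons of all annotated transcripts, at 6675 bases for Pfkl, 3340 for Pfkm and 13401 for Pfkp. The order of the 3 genes depends on these lengths, and in mean counts with LDE225 Pfkp (1294) was above Pfkl (1032). The mean shares of counts were 59.7% ± 8.12 (SD over n = 3 libraries) with vehicle and 38.2% ± 3.11 (SD over n = 2) with LDE225 for Pfkl, and 27.5% ± 6.13 (SD over n = 3 libraries) with vehicle and 47.2% ± 4.26 (SD over n = 2) with LDE225 for Pfkp. Pfkp overlaps Pitrm1 on the other strand and Pfkm overlaps Senp1, and the strand setting of the counting is not given in the sources used here, so reads of these neighbours cannot be told apart from theirs. Aldoa, Tpi1, Gapdh, Ankrd37 and Mxi1 likewise overlap a coding gene on the other strand.

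The bifunctional enzymes that make and remove fructose 2,6-bisphosphate, the activator of phosphofructokinase, are HIF targets in part. Pfkfb3, whose kinase activity predominates, had 441, 520.5 and 447 with vehicle and 378 and 329 with LDE225 (log2 fold change -0.41 ± 0.16, limma adjusted p = 0.376). Pfkfb4 had 182, 191 and 234 with vehicle and 219 and 227 with LDE225, without separation (log2 fold change 0.15 ± 0.20, limma adjusted p = 0.81).

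The payoff phase, in which ATP and NADH are made, was lower at each of its steps. Gapdh, which makes NADH, had 14672, 19265 and 12771 in vehicle 1, 2 and 3 and 7858 and 8912 in LDE225 1 and 2 (log2 fold change -0.87 ± 0.24, limma adjusted p = 0.224), a 1.86-fold lower mean, at 15569 ± 3339 (SD over n = 3 libraries) with vehicle and 8385 ± 745 (SD over n = 2) with LDE225. Pgk1, which makes the first ATP, had 3526, 5129 and 2977 in vehicle 1, 2 and 3 and 1438 and 1786 in LDE225 1 and 2, 2.41-fold lower (log2 fold change -1.24 ± 0.25, limma adjusted p = 0.154). Its means were 3877 ± 1118 (SD over n = 3 libraries) with vehicle and 1612 ± 246 (SD over n = 2) with LDE225. Pgam1, phosphoglycerate mutase, had 3173, 4199 and 3078 with vehicle and 1782 and 2106 with LDE225 (log2 fold change -0.83 ± 0.19, limma adjusted p = 0.184). Every vehicle library stood above both LDE225 libraries in these 3 genes. Eno1, enolase 1, had 9082, 12491 and 7593 with vehicle and 4404 and 4912 with LDE225, 2.09-fold lower (log2 fold change -1.03 ± 0.24, limma adjusted p = 0.186). Pkm, pyruvate kinase of muscle and of proliferating cells, had 12406, 18913 and 13018 with vehicle and 7189 and 8838 with LDE225 (log2 fold change -0.86 ± 0.25, limma adjusted p = 0.254). For both, vehicle 2 was the highest library and LDE225 1 the lowest. Eno2, the enolase also known from neurons, was the exception of this phase, at 506, 217 and 306 with vehicle and 443 and 396 with LDE225 (log2 fold change 0.37 ± 0.34, limma adjusted p = 0.707). Its share of the enolase counts was 5.28%, 1.71% and 3.88% in vehicle 1, 2 and 3 and 9.15% and 7.45% in LDE225 1 and 2, higher in both LDE225 libraries than in any vehicle library. Pseudogenes named after the gene are annotated in the genome for Aldoa, Gapdh, Pgk1, Pgam1 and Ldha. Reads shared with such copies could have been assigned to either, so the levels of these 5 genes are less certain. Copies under other names were not searched for, so the same may hold for other genes.

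Of the genes for lactate production and export, Ldha and Slc16a3 had lower RNA values in both LDE225 libraries, and Slc16a1 overlapped. Ldha, which turns pyruvate into lactate, had 5138, 7378 and 5533 in vehicle 1, 2 and 3 and 3745 and 3993 in LDE225 1 and 2 (log2 fold change -0.62 ± 0.20, limma adjusted p = 0.289). Slc16a3, which encodes the lactate exporter MCT4, had 1027, 1788 and 1159 in vehicle 1, 2 and 3 and 452 and 642 in LDE225 1 and 2, 2.42-fold lower (log2 fold change -1.25 ± 0.28, limma adjusted p = 0.171). Its means were 1325 ± 407 (SD over n = 3 libraries) with vehicle and 547 ± 134 (SD over n = 2) with LDE225. Its groups were well apart, whereas Slc16a1, which encodes the carrier MCT1 and can also take lactate up, had 1494, 998 and 1301 with vehicle and 1375 and 884 with LDE225 and overlapped (log2 fold change -0.18 ± 0.25, limma adjusted p = 0.83). The share of Slc16a3 in the counts of both carriers was 40.7%, 64.2% and 47.1% in vehicle 1, 2 and 3 and 24.7% and 42.1% in LDE225 1 and 2, so that this share overlapped between groups. Pdk1, a kinase that keeps pyruvate from the citric acid cycle by inhibiting pyruvate dehydrogenase, had 595, 744 and 339 with vehicle and 239 and 314 with LDE225 (log2 fold change -0.96 ± 0.34, limma adjusted p = 0.325). Vehicle 3 and LDE225 2 were close in Pdk1.

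**Figure D2:**
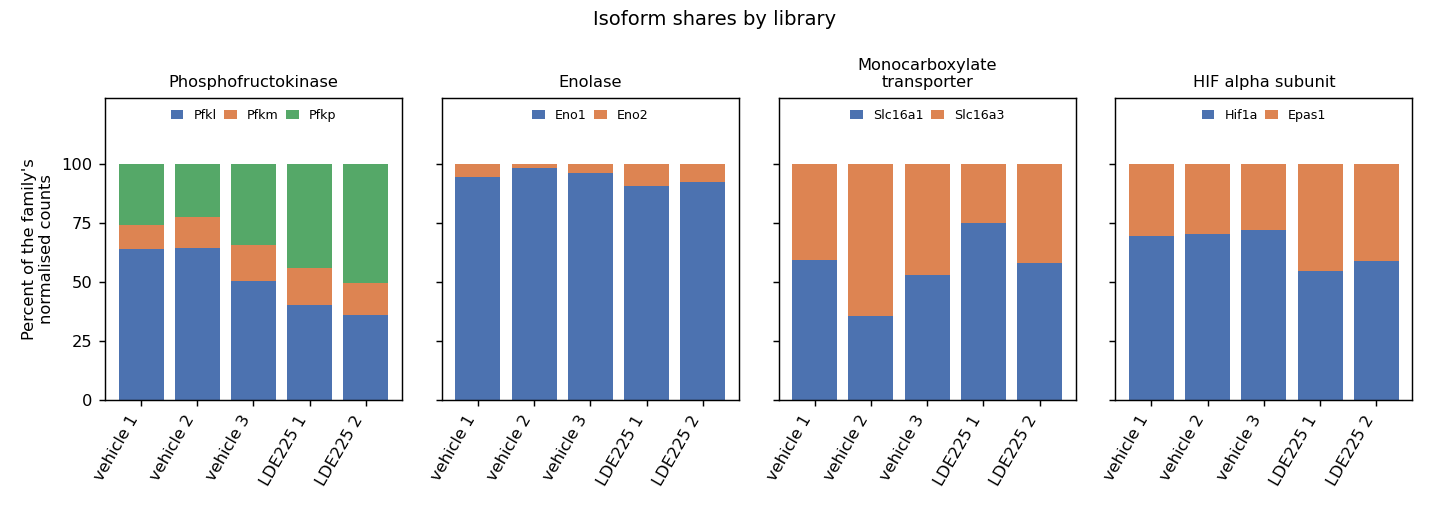
Percent of the summed normalised counts of a family held by each of its genes, stacked by library, for phosphofructokinase, enolase, the monocarboxylate transporters and the HIF alpha subunits. Pfkp, Eno2 and Epas1 hold larger shares in both LDE225 libraries than in any vehicle library, while the shares of Slc16a1 and Slc16a3 overlap between treatments.

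Gapdh lies at chr6:125161715-125166467, minus strand, Pgk1 at chrX:106187100-106203699, plus strand and Eno1 at chr4:150236721-150248879, plus strand. Pfkl lies at chr10:77986947-78010083, minus strand, Pfkp at chr13:6579768-6648777, minus strand and Slc16a3 at chr11:120948480-120960868, plus strand, all in GRCm38. Taken per kilobase of annotated exon (GENCODE M21), Gapdh was the highest of the enzymes, at 3767 normalised counts per kilobase with vehicle and 2029 with LDE225, followed with vehicle by Pkm (2955 with vehicle and 1602 with LDE225) and Aldoa (2307 with vehicle and 1517 with LDE225). Aldoc was the lowest of them, at 22.5 with vehicle and 6.47 with LDE225. This ranking also depends on exon lengths merged over all annotated transcripts, which can exceed the length of the RNA present. The 23 genes together held 0.790%, 0.926% and 0.635% of all normalised counts in vehicle 1, 2 and 3 and 0.406% and 0.426% in LDE225 1 and 2. Vehicle 2 had the highest value of all 5 libraries for 17 of the 23 genes and vehicle 3 the lowest of the vehicle libraries for 12, and LDE225 1 was below LDE225 2 for 20.

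Markers of epithelial cells and of cell division were also lower with LDE225. The 10 proliferation markers summed to 3382, 3526 and 2885 in vehicle 1, 2 and 3 and 1133 and 1313 in LDE225 1 and 2. All 10 were lower in both LDE225 libraries than in every vehicle library, against 15.2% of all genes tested. The median log2 fold change of these 10 was -1.39. Limma called 0 of them (smallest adjusted p = 0.0731). DESeq2 called 8 lower and 0 higher, against 1.77% and 2.3% of all genes. The 12 epithelial markers summed to 10066, 8428 and 8871 in vehicle 1, 2 and 3 and 7436 and 3478 in LDE225 1 and 2. Of these markers 6 of 12 were lower and 0 higher in both LDE225 libraries, against 15.2% and 16.6% of all genes. Their log2 fold changes were negative for 9 and positive for 3 (median -0.78). DESeq2 called 4 lower and 0 higher, where it called 1.77% and 2.3% of all genes, and 0 of the 12 were at 0 in all libraries. Epcam itself, used to remove epithelial cells in the sort, was among the 3 positive ones. It had 325, 71.5 and 213 with vehicle and 687 and 78.6 with LDE225, so that the groups overlapped. Of the LDE225 libraries, LDE225 2 had the lower epithelial sum, the higher proliferation sum and the higher value for 20 of the 23 enzymes and transporters. The proliferation and enzyme sums were both highest in vehicle 2 and lowest in LDE225 1, and the epithelial sum was highest in vehicle 1 and lowest in LDE225 2. The part of either marker group in the lower enzyme values was not tested.

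**Figure D3:**
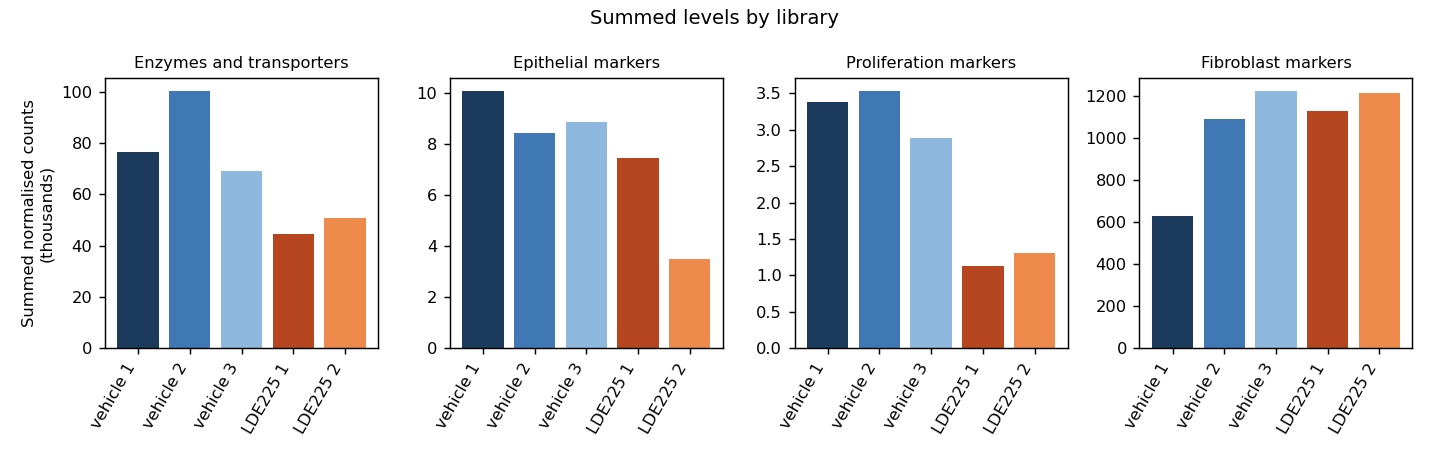
Summed normalised counts by library, scaled as marked on the axis, for the 23 enzymes and transporters, 12 epithelial, 10 proliferation and 10 fibroblast markers. The enzyme and proliferation sums are lower in both LDE225 libraries than in every vehicle library, and the epithelial sum is lowest in LDE225 2.

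The other 12 genes did not share one direction. Their median log2 fold change was -0.15, with 9 negative and 3 positive values, and it was 0.067 without LDE225 1. Both LDE225 libraries were below every vehicle library for Egln3 and Car9 and above for Hif1a and Epas1, and the remaining 8 genes overlapped. These 2 lower and 2 higher of 12 were near the 15.2% and 16.6% of all genes tested. At an unadjusted p under 0.05 in limma, 2 were lower (Egln3 and Car9) and 1 higher (Epas1), where 5.71% and 6.92% of all genes were.

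The oxygen sensors differed from each other. Egln3 encodes the prolyl hydroxylase PHD3, a strongly HIF-induced sensor, and had 1034, 1260.1 and 819.9 in vehicle 1, 2 and 3 and 358 and 491 in LDE225 1 and 2, 2.44-fold lower (log2 fold change -1.28 ± 0.23, limma adjusted p = 0.137). Its means were 1038 ± 220.1 (SD over n = 3 libraries) with vehicle and 425 ± 93.9 (SD over n = 2) with LDE225. It had the smallest p of the genes lower with LDE225, and DESeq2 called it (adjusted p = 0.000488). Egln1, which encodes PHD2, the main sensor in most cells, had 549, 902 and 673 with vehicle and 584 and 794 with LDE225 and overlapped (log2 fold change -0.026, 95% interval -0.62 to 0.57).

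Among the other HIF targets, Car9, which encodes carbonic anhydrase 9, a cell-surface enzyme that disposes of acid and a common marker of hypoxia, had 159, 213 and 99.0 in vehicle 1, 2 and 3 and 85.2 and 75.2 in LDE225 1 and 2 (log2 fold change -0.90 ± 0.35, limma adjusted p = 0.365). Vehicle 3 stood only slightly above LDE225 1. Bnip3, a mitochondrial receptor for autophagy, had 759.5, 890.3 and 399 with vehicle and 372 and 498 with LDE225, and LDE225 2 exceeded vehicle 3 (log2 fold change -0.59 ± 0.35, limma adjusted p = 0.56). Ankrd37, a small HIF target of low level here, had 20.4, 45.4 and 12.8 with vehicle and 19.3 and 5.92 with LDE225 (log2 fold change -1.01 ± 0.81, limma adjusted p = 0.663). Neither gene separated the treatments.

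The remaining 5 targets overlapped between treatments. Ddit4, which encodes REDD1, an inhibitor of mTORC1, ranged from 609 to 3459.8 within vehicle and from 875 to 1646 with LDE225 (log2 fold change -0.38 ± 0.68). Ndrg1, a differentiation and stress gene, had 1896, 1738 and 1823 with vehicle and 1679.8 and 2359 with LDE225 (log2 fold change 0.13 ± 0.18, limma adjusted p = 0.821). Bhlhe40, a transcriptional repressor of the clock and of hypoxia, had 3504, 3628 and 4742 with vehicle and 2948 and 4164 with LDE225 (log2 fold change -0.16 ± 0.22, limma adjusted p = 0.82). Ddit4 thus had a wide spread within vehicle and Ndrg1 a narrow one. Kdm3a, a histone H3 lysine 9 demethylase, had a log2 fold change of -0.084 ± 0.29, and Mxi1, a MYC antagonist, had one of -0.14 ± 0.24, both overlapping as well.

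The HIF alpha subunits had higher RNA levels with LDE225 while Egln3, Car9 and most enzymes had lower ones. Epas1, which encodes HIF-2 alpha, had 901, 1168 and 1374 in vehicle 1, 2 and 3 and 3592 and 2587 in LDE225 1 and 2, a 2.69-fold higher mean. The means were 1148 ± 237 (SD over n = 3 libraries) with vehicle and 3089.5 ± 710.4 (SD over n = 2) with LDE225. Both LDE225 libraries were far above every vehicle library, and this was the smallest p of the 35 genes (log2 fold change 1.43 ± 0.23, limma adjusted p = 0.116, DESeq2 adjusted p = 2e-05). With 1 library left out, its log2 fold change lay between 1.19 and 1.67. Hif1a, which encodes HIF-1 alpha, had 2045, 2775 and 3536 in vehicle 1, 2 and 3 and 4321 and 3709 in LDE225 1 and 2 (log2 fold change 0.56 ± 0.25, limma adjusted p = 0.418), so that vehicle 3 and LDE225 2 nearly met. Of the summed counts of both genes, Epas1 made up 30.6%, 29.6% and 28.0% in vehicle 1, 2 and 3 and 45.4% and 41.1% in LDE225 1 and 2. Per kilobase of exon, Hif1a had 472 with vehicle and 681 with LDE225 and Epas1 205 with vehicle and 553 with LDE225, so that Hif1a remained the higher of the 2 genes. The activity of HIF alpha subunits is set largely by the stability of the protein, which was not measured here. Epas1 lies at chr17:86753700-86833410, plus strand and Hif1a at chr12:73901375-73947530, plus strand of GRCm38, and the annotation gives Hif1a an overlap with the coding gene model Gm49321 on the same strand, so that its reads may be divided between them.

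**Figure D4:**
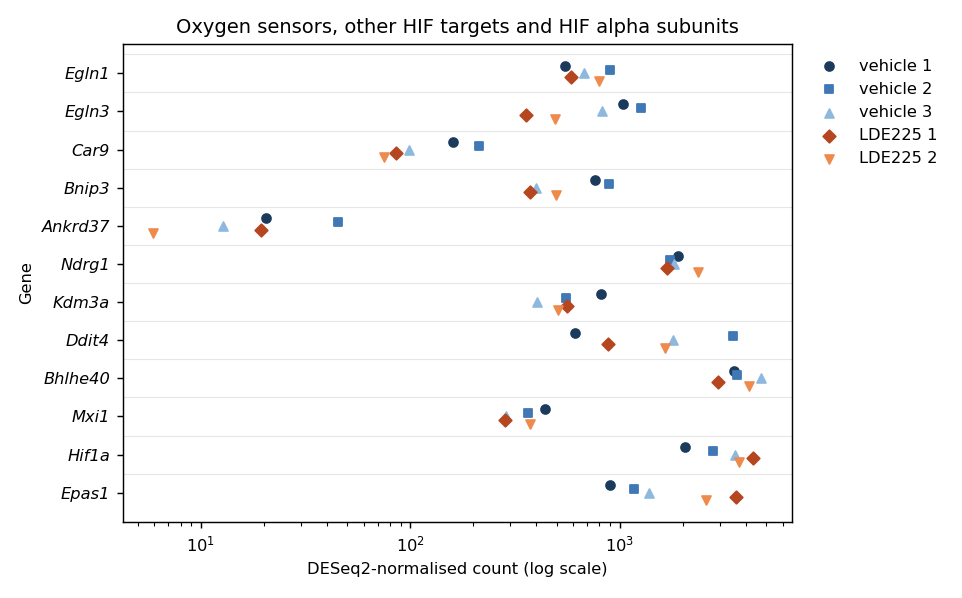
DESeq2-normalised counts (log scale) of the 12 oxygen sensors, other HIF targets and HIF alpha subunits in each library. Epas1 and Hif1a are the genes whose orange LDE225 points lie right of all blue vehicle points, and Egln3 and Car9 those whose orange points lie left.

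**Figure D5:**
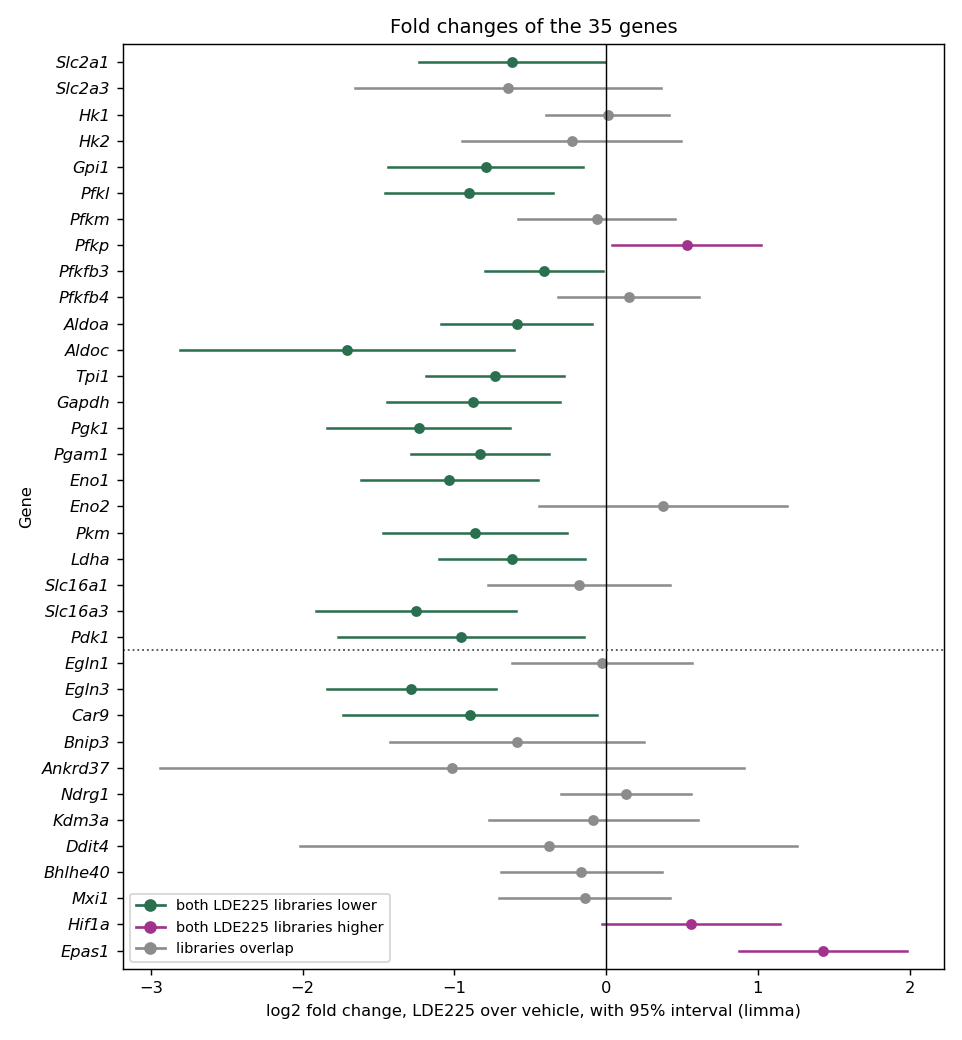
Log2 fold changes of LDE225 over vehicle for the 35 genes with 95% intervals from limma, enzymes and transporters above the dotted line and the other HIF genes below it. Green marks the 17 genes lower in both LDE225 libraries, purple the 3 that were higher (Pfkp, Hif1a and Epas1) and grey the 15 that overlapped.

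Other HIF targets outside the 35 genes were spread in both directions. Of 35 tested, 23 had negative log2 fold changes, 9 were lower and 5 higher in both LDE225 libraries, and the median was -0.10. Over all genes tested these shares were 15.2% lower and 16.6% higher. In limma and in edgeR 0 passed after adjustment over all genes. Without adjustment, 7 were lower and 4 higher in limma at p under 0.05, where 5.71% and 6.92% of all genes were. DESeq2 called 4 lower and 2 higher, where it called 1.77% and 2.3% of all genes. Vegfa, the angiogenic growth factor, had 2165, 3321 and 2244 with vehicle and 1534 and 1249 with LDE225 (log2 fold change -0.87 ± 0.23, limma adjusted p = 0.213), and Fam162a, a mitochondrial HIF target, had 528, 539 and 344 with vehicle and 227 and 229 with LDE225 (log2 fold change -1.01 ± 0.23, limma adjusted p = 0.186). Adm, which encodes the vasodilator adrenomedullin, was above vehicle in both LDE225 libraries at a log2 fold change of 1.65 ± 0.22 (limma adjusted p = 0.0913, with 163, 161 and 236 with vehicle and 543 and 622 with LDE225). Vldlr, a lipoprotein receptor, was likewise above, at 419, 459.6 and 349 with vehicle and 659 and 789 with LDE225 (log2 fold change 0.82 ± 0.18, limma adjusted p = 0.17).

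Regulators of the HIF alpha subunits were divided in sign: of 12 genes, 6 had negative and 6 positive log2 fold changes. Limma, edgeR and DESeq2 each called 0 of them. In limma 0 were lower and 1 higher (Arnt2) at an unadjusted p under 0.05, against 5.71% and 6.92% of all genes. Arnt, which encodes the stable HIF partner, had 920.1, 1313 and 1106 with vehicle and 1141 and 1222 with LDE225 (log2 fold change 0.10 ± 0.18, limma adjusted p = 0.87), and Vhl had 336, 361 and 262 with vehicle and 326 and 279 with LDE225 (log2 fold change -0.071 ± 0.20, limma adjusted p = 0.923). In both genes the treatments overlapped. Arnt2, a relative of Arnt, had 94.3, 32.8 and 22.1 with vehicle and 151 and 130.2 with LDE225 (log2 fold change 1.75 ± 0.60, limma adjusted p = 0.304). Hif3a, an alpha subunit that can restrain the others, had a log2 fold change of -1.29 ± 0.59, Siah1a, a ubiquitin ligase acting on Egln proteins, one of 0.43 ± 0.20, and Hsp90ab1, a chaperone of HIF-1 alpha, one of -0.28 ± 0.19.

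Genes that surround glycolysis were described in the same way. The 20 genes of pyruvate entry and the citric acid cycle had a median log2 fold change of -0.0073, with 4 lower and 1 higher in both LDE225 libraries, against 15.2% and 16.6% of all genes. Limma and edgeR called 0 of them. At an unadjusted p under 0.05, 1 was lower in each, against 5.71% of all genes in limma and 5.68% in edgeR. DESeq2 called that gene lower, where it called 1.77% of all genes lower. The gene was Mdh2, mitochondrial malate dehydrogenase, at 1596, 1700.4 and 1669 with vehicle and 1044 and 1183 with LDE225 (log2 fold change -0.57 ± 0.14, limma adjusted p = 0.188). Pdp1 (log2 fold change 0.38), a phosphatase that activates pyruvate dehydrogenase, Pdha1 (-0.19), a subunit of that complex, and Fh1 (-0.23), fumarase, followed. Pdk4, the kinase of the fasting state, had 159, 45.4 and 76.9 with vehicle and 53.0 and 376 with LDE225, so that LDE225 2 was the highest library and LDE225 1 lay within the vehicle range.

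The 8 measured genes of the pentose phosphate pathway had a median log2 fold change of -0.11, and 0 had an unadjusted p under 0.05 in limma. Both entry enzymes were above vehicle in both LDE225 libraries, G6pdx at 492, 595 and 515 with vehicle and 613 and 742 with LDE225 (log2 fold change 0.34 ± 0.17, limma adjusted p = 0.465) and its reticular counterpart H6pd at 8378, 7921 and 7605 with vehicle and 9766 and 10309 with LDE225 (log2 fold change 0.33 ± 0.17, limma adjusted p = 0.484). Pgls (-0.47), the next enzyme, and Tkt (-0.44), transketolase, were below vehicle in both. Of 16 other glycolytic isoforms tested, 4 were lower and 3 higher in both LDE225 libraries, against 15.2% and 16.6% of all genes. Limma, edgeR and DESeq2 passed 0 of them. At an unadjusted p under 0.05 in limma, 2 were lower and 1 higher, where 5.71% and 6.92% of all genes were. The smallest p-values were those of Pklr, the liver and red cell pyruvate kinase (-2.00), Ldhb (-0.56), the lactate dehydrogenase of oxidative tissues, Bpgm (0.56), which makes 2,3-bisphosphoglycerate, and Pgm2 (-0.38), a phosphopentomutase, all as log2 fold changes. Of the gluconeogenic genes, Pck2 (-0.24) and G6pc3 (0.038) were tested, and both overlapped between treatments.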

How the data were processed

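RNA from sorted tumour cells was sequenced in paired ends after ribosomal depletion with a directional kit, per the labels' protocols. The authors deposited a signal per gene, DESeq2-normalised counts that are neither logged nor scaled for length. Per the submitters' processing notes, STAR 2.7.3, RSEM 1.2.29, DESeq2 1.22.2 and GRCm38 were used, in roles the notes do not state. Annotation release and gene filter: not given in the sources used here. Divided by the smallest value above 0 in their library, 100% of values came out whole within 0.001, and these whole numbers served as reads. A further 3 columns without a header were not used.

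Samples were grouped by title. The test was limma 3.58.1 (R 4.3.3) and its trend option, two-sided, on log2(value + 1) of the 13183 genes averaging 10 or more, adjusted over all of them by Benjamini-Hochberg, with a threshold of 0.05. Fold changes on this scale understate changes of low genes. Folds between means use the normalised counts. The fits were also run on simulated data, and the outcome is not given here. Alternatives were the pseudocount, the filter, 3 scalings, dropping limma's trend, adding array weights, blocking on the replicate number, omitting single libraries, and testing those reads with edgeR 4.0.16 and DESeq2 1.42.0. Members, gene lists and tests were chosen with earlier results of these data known. Values in every library are given for the members with the smallest p in each group, for 6 fixed genes and, in addition, for members whose isoforms are compared; in each other list up to 4 genes with the smallest p and 5 fixed genes are named. Exon lengths, merged over all annotated transcripts of a gene, and coordinates are those of GENCODE M21, whose versioned identifiers matched for all 35 genes.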

Additional observations from a re-analysis of the deposited data

How the results depend on the processing

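The medians of the enzymes and transporters (-0.64) stayed negative in every alternative run. As 15 of the 23 genes were lower in both LDE225 libraries, only the scalings, edgeR and DESeq2 could have turned that sign. With 1 library left out the medians ranged from -0.87 to -0.48 (lowest without vehicle 3). The median was -0.87 with a replicate block, in which vehicle 3 has no partner and does not bear on the estimate. The median of the other HIF genes ranged from -0.29 to 0.067, and the count of the 35 genes lower in both LDE225 libraries from 17 to 22. Leaving out a library cannot lower this count. The number of the 35 genes called was 0 lower and 0 higher except for array weights (0 lower, 1 higher, Epas1 at adjusted p = 0.0483) and DESeq2 (10 lower, 1 higher). Over all genes, the 1 lower and 3 higher calls became 2 and 4 with the same total, 0 and 2 without trend, 38 and 70 with array weights, 5 and 16 with the replicate block, 0 and 2 in edgeR and 233 and 303 in DESeq2. Leaving out 1 library gave 0 to 4 lower and 0 to 6 higher. The cause of these differences was not tested.

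The deviations of same-numbered libraries from their group means had correlations across genes of 0.13 for number 1 and -0.017 for number 2. With 2 LDE225 libraries their deviations are mirror images of each other, so these values cannot decide whether the numbers pair the libraries. The main test took no pairing. Scaling to the same total moved the median of all genes to -0.13; with it the list medians were -0.24 for other HIF targets, -0.14 for pyruvate and citric acid cycle genes and -0.24 for the pentose phosphate pathway. With 1 library left out these ranged from -0.27 to -0.066, -0.14 to 0.057 and -0.15 to -0.015, and the other glycolytic isoforms from -0.28 to -0.0016.

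Log2 fold changes that changed sign all belonged to genes with overlapping groups. These were Hk1 (-0.12) and Ndrg1 (-0.0022) with the same total, Hk1 with the upper quartile (-0.011) and with quantiles (-0.028), Kdm3a with array weights (0.14), and Hk1 (-0.052) and Hk2 (0.012) with the replicate block. With 1 library left out the ranges were Hk1 -0.095 to 0.13, Kdm3a -0.33 to 0.17, Mxi1 -0.34 to 0.057, Pfkm -0.23 to 0.056, Egln1 -0.25 to 0.19, Ddit4 -1.06 to 0.20, Hk2 -0.51 to 0.012, Bhlhe40 -0.41 to 0.087, Slc16a1 -0.50 to 0.14, Ndrg1 -0.11 to 0.38. The remaining 25 genes kept their sign throughout, the 17 lower and 3 higher in both LDE225 libraries among them. In genes with separated groups only the scalings, edgeR and DESeq2 could have turned the sign. The other alternatives, such as omitting a library, could not, so their result there was fixed in advance. The number of LDE225 libraries, 2, limits the precision of every comparison.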
